A study of Mus musculus with 56 samples.

Results

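Oleic acid (OA), a fatty acid that injures the lung when it reaches the lung capillaries through a vein, was given to all mice of the main comparison. That comparison asked which genes differed between the intermediate stage (3 h and 4 h after injection) and the early stage (1 h and 1.5 h). The members were the OA mice whose titles carry L2 or L3, which were 18 mice on 33 arrays of the 56 samples in the series. The meaning of the L number is given neither in the labels nor in the methods. It is called the lot below, and it was kept as a block because mice of both stages carried L2 or L3. A single L1 array read 1.5 h under the code of a 4 h mouse and was not used. All were female C57Bl/6J mice of 7 weeks that were anesthetized with xylazine and ketamine, received 20 µl of OA (1.2 µl per g of body weight) in the tail vein and were bled through the eye vein at death. In lot 2, 6 early mice (3 at 1 h and 3 at 1.5 h) stood against 3 intermediate mice (2 at 3 h and 1 at 4 h). In lot 3, 4 early mice (1 at 1 h and 3 at 1.5 h) stood against 5 intermediate mice (3 at 3 h and 2 at 4 h). Total RNA of a lung (a whole lung in the labels, the smallest lung in the methods) was labelled with 33P and hybridised to nylon membranes that carry cDNA clones, so that each value belongs to 1 clone and a gene may have several. Of 9984 spots, 7625 clones of 5883 gene symbols were tested. Control mice received physiological serum instead of OA, and none had a lot number. The main comparison is therefore between times after OA, all under anesthesia, and not between OA and no OA. The serum mice at 1 h, 1.5 h and 3 h are set beside it further below.

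The tissue label was checked first. Sftpd, a collectin of the alveolar surfactant, averaged 13.48 on the deposited log2 scale, the sodium-phosphate transporter Slc34a2 of alveolar type II cells 12.71 and the endothelial cadherin Cdh5 12.36, and all 3 stood above the spots without a gene name on 33 of 33 arrays. For this purpose an array's background was the 95th percentile of its 1647 unnamed spots, which lay between 8.81 and 9.46. The hemoglobin clones were near the top of the scale (Hbb-b1, clone 1, 14.38), so blood RNA was part of each sample. Among 8 clones of B cell markers, 5 were above the background on no array, and among 8 clones of T cell markers, 6 were. Between 25.3% and 41.4% of the clones were above it on an array. The 2 arrays of 1 mouse had a median correlation of 0.936 over clones against 0.926 for arrays of different mice, and in 0 of 15 mice with 2 arrays did both arrays correlate best with each other. The highest correlation between different mice, 0.975, joined the arrays numbered 60 (a 3 h mouse of lot 2) and 61 (a 1 h mouse of lot 2). Mouse P7L2, early in lot 2 with 1 array, had a mean correlation of 0.883 with the other mice, where the next lowest was 0.939. One array of the 3 h mouse P7L3 has a source name that reads 1.5 h, while its title reads 3 h.

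Several systems that are known to respond to injury within hours were represented on the membranes. Metallothioneins bind zinc and copper, and their genes are known targets of metals, glucocorticoids and inflammation. Glucocorticoids act through a nuclear receptor that induces a set of genes within hours, Fkbp5 among them. Cells under oxidative stress are known to raise the enzymes that make glutathione and repair oxidised proteins, and G0s2 and Angptl4 both take part in the control of lipases.

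Between the early and the intermediate stage, 12 clones of 11 genes rose and 7 clones of 5 genes fell (limma with lot as a block, Benjamini-Hochberg adjusted p under 0.05 over 7625 clones). These are 0.157% and 0.0918% of the clones tested. At an unadjusted p under 0.05, 809 clones differed. Averaged over the mice, 10 of the 19 called clones were above the unnamed spots. A fold is given only for clones above these spots on most arrays of both stages, and for the others the measured log2 difference stands alone, since the level of the lower stage was mostly not above background. All 19 called clones moved the same way in both lots with an unadjusted p under 0.05 in each, a count that rests on the same mice as the call itself. Leaving out any 1 of the 18 mice kept the call of 12 clones, while Angptl4, Plat, Gclc, Plaa, Lbh, Ms4a1 and the third clone of Ly6d each lost it in 7 to 14 of these 18 fits. Over all clones, 0.551% were higher and 0.551% were lower in both lots by that rule, which is 42 clones each way, and 72 clones passed it with opposite directions. The stages did not overlap in any of the 18 mice for 9 clones, or 0.118% of those tested, and these 9 were all among the 19 called. Within each lot taken alone, 17 clones (0.223%) did not overlap in the same direction, and 10 of them were among the called.

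**Figure D1:**
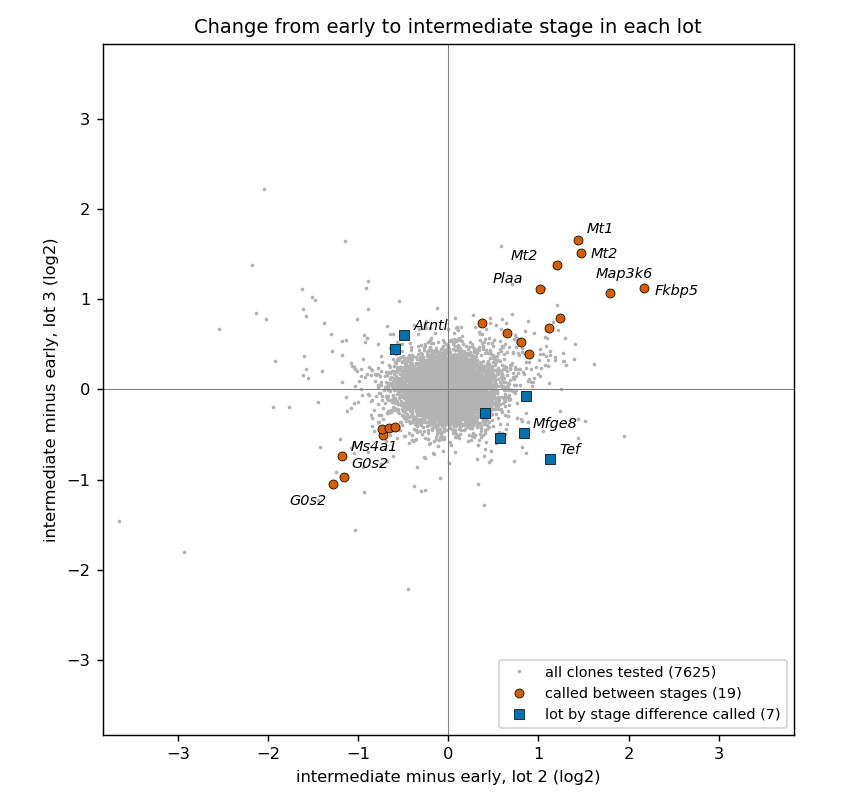
Difference of the mean log2 value between the intermediate and the early stage in lot 2 (x axis) and in lot 3 (y axis), 1 point per clone. The 19 called clones lie where both differences have the same sign, with Fkbp5 at 2.17 and 1.13, and the 7 clones whose change differed between lots lie to the lower right and upper left, with Tef at 1.13 and -0.77.

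Mt1 and Mt2, which encode the small cysteine-rich metallothioneins, rose together in both lots. Both genes lie close to each other on chromosome 8, and their promoters (250 bases before to 50 after the start site in RefSeq, build GRCm38.p6) are shown because the 2 genes moved together. Capitals mark matches on either strand to the metal response element in the forms TGCACNC and TGCGCNC. The promoter of G0s2, which fell in 2 clones, is set beside them.
Mt1 promoter, GRCm38.p6, chr8:94178839-94179138, plus strand: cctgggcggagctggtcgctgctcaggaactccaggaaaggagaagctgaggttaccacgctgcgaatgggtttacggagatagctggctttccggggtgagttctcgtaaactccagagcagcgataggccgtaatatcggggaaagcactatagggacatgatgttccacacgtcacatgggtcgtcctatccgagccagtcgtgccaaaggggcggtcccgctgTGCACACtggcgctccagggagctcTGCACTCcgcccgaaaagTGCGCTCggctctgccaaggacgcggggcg
Mt2 promoter, GRCm38.p6, chr8:94172368-94172667, plus strand: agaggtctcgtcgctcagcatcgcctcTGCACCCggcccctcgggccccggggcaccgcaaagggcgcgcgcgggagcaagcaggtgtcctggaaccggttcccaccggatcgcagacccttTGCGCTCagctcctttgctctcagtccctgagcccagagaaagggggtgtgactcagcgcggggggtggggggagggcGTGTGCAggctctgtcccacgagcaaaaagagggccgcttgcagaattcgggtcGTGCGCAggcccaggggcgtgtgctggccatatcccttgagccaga
G0s2 promoter, GRCm38.p6, chr1:193273139-193273438, minus strand: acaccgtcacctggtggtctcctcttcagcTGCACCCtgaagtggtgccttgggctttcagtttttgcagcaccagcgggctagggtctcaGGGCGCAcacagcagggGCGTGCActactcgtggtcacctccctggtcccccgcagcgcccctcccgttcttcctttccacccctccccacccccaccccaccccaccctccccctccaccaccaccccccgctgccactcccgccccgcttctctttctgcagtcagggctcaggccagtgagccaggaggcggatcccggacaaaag
The Mt1 promoter held 3 matches, the Mt2 promoter 4 and the G0s2 promoter 3. Of the 10 called genes with a promoter, 8 held a match of either form in at least 1 listed promoter. Besides these they were Arhgap29, Lbh, Plaa, Sphk1 and Srxn1, so the motif was not particular to the metallothioneins. Over the 32851 promoters of the table, 25.7% held at least 1 match of either form and 1.97% held 3 or more. These shares are per promoter, while the 8 of 10 is per gene over all its listed promoters, so the measures are unlike. In Sphk1 the match lay only in the promoters of start sites 4 and 5, which overlap. Mt1 also held the 1 match to the glucocorticoid response element (by name, a motif of 15 bases) found among the called genes, and 0.14% of all promoters held one. A match is a description of the letters and was not tested as a site.

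The first Mt1 clone had a lowest, median and highest value of 9.16, 9.88 and 10.58 in the 6 early mice of lot 2 and values of 10.86, 10.88 and 12.20 in its 3 intermediate mice. In lot 3 the early mice had 9.47, 9.52, 10.11 and 10.38 and the intermediate mice 11.75, 11.38, 11.04, 11.62 and 11.84. All 8 intermediate mice were above all 10 early mice. The difference over both lots was 1.55 ± 0.22 on the log2 scale (SE), or 2.93-fold, with an adjusted p of 0.00182 (limma), and it was 1.44 in lot 2 and 1.66 in lot 3. A second Mt1 clone differed by 1.09 ± 0.32 and was not called (adjusted p 0.171).

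Both Mt2 clones rose without overlap between the stages. The brighter clone had 9.19, 9.84 and 10.76 as lowest, median and highest early value in lot 2 against 11.05, 11.41 and 10.84 in the intermediate mice, and in lot 3 it had 10.02, 9.94, 10.61 and 10.39 against 11.91, 11.82, 11.02, 11.57 and 11.75. Its difference was 1.30 ± 0.19 (2.46-fold, adjusted p 0.00205) and that of the other clone 1.5 ± 0.19 (2.82-fold, adjusted p 0.00142). The change was of like size in each lot, at 1.21 and 1.38 for the brighter clone and 1.47 and 1.52 for the other. By hour over both lots, the first Mt1 clone averaged 9.68 ± 0.62 (SD, n = 4) at 1 h, 10.01 ± 0.32 (n = 6) at 1.5 h, 11.18 ± 0.38 (n = 5) at 3 h and 11.88 ± 0.30 (n = 3) at 4 h.

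The list of metallothioneins and metal transport held 15 clones of 10 genes, of which 3 clones rose, 0 fell and 12 did not pass the test. Of all clones tested, 0.157% rose and 0.0918% fell. Of the 15, 10 were higher in both lots and 1 lower, against 24.6% and 23.7% of all clones. Their median difference was 0.29, and that of all clones -0.01. Fth1, the ferritin heavy chain and brightest of the list at 13.96, differed by 0.36 ± 0.40.

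Fkbp5 encodes a co-chaperone of Hsp90 that lowers the affinity of the glucocorticoid receptor for its hormone. In lot 2 the early mice ranged from 7.38 over a median of 7.83 to 8.45, and the intermediate mice had 10.25, 9.87 and 10.02. In lot 3 the early mice had 7.42, 7.64, 8.29 and 8.48 and the intermediate mice 9.02, 8.72, 8.77, 9.96 and 8.98. The stages did not overlap in either lot, and the rise was 2.17 ± 0.29 in lot 2 and 1.13 ± 0.27 in lot 3. The measured difference over both lots was 1.62 ± 0.23 (adjusted p 0.00182). Since 0 of 18 early arrays and 11 of 15 intermediate arrays were above the unnamed spots, the fold is only bounded, at least 1.26-fold with the early arrays set to their background level. Within the early stage, the 4 mice at 1 h averaged 7.50 ± 0.14 (SD) and the 6 mice at 1.5 h 8.18 ± 0.32, and their ranges overlapped.

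Map3k6, a kinase at the head of a MAP kinase cascade, rose by a measured 1.41 ± 0.24 (adjusted p 0.00865). Its early mice in lot 2 ran from 6.93 over a median of 8.04 to 8.69 against 9.32, 9.57 and 10.07, and in lot 3 the early mice had 7.74, 8.41, 8.90 and 8.58 against 9.38, 9.53, 9.66, 9.36 and 9.47. No intermediate mouse was as low as any early mouse. It was above the unnamed spots on 2 of 18 early and 14 of 15 intermediate arrays, so most early values were below background. The 1 h mice averaged 7.47 ± 0.58 (n = 4), the 1.5 h mice 8.49 ± 0.32 (n = 6), the 3 h mice 9.49 ± 0.14 (n = 5) and the 4 h mice 9.63 ± 0.38 (n = 3).

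Angptl4 encodes a secreted inhibitor of lipoprotein lipase that fatty acids and glucocorticoids are known to induce. It rose by a measured 0.89 ± 0.18 (adjusted p 0.0461), with 7 of 18 early and 15 of 15 intermediate arrays above the unnamed spots. The intermediate mice of lot 2 (10.11, 9.87 and 10.38) were above its early mice (8.52 to 9.66), while in lot 3 the intermediate mice (9.60, 9.87, 9.38, 10.30 and 9.66) overlapped the early mice (8.64, 8.92, 9.50 and 9.27). Of the 18 clones in the list of glucocorticoid-responsive genes, these 3 rose and 0 fell, where 0.157% and 0.0918% of all clones did. In both lots 10 of the 18 (55.6%) were higher and 2 (11.1%) lower, against 24.6% and 23.7% of all clones, and the median difference was 0.14. Cdkn1a, an inhibitor of cyclin-dependent kinases, differed by 1.12 ± 0.24 (adjusted p 0.0594) and Txnip, an inhibitor of thioredoxin, by -0.41 ± 0.11 (adjusted p 0.134), so neither passed the test. The list was drawn up with results of these data known, and its members are also targets of other signals.

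**Figure D2:**
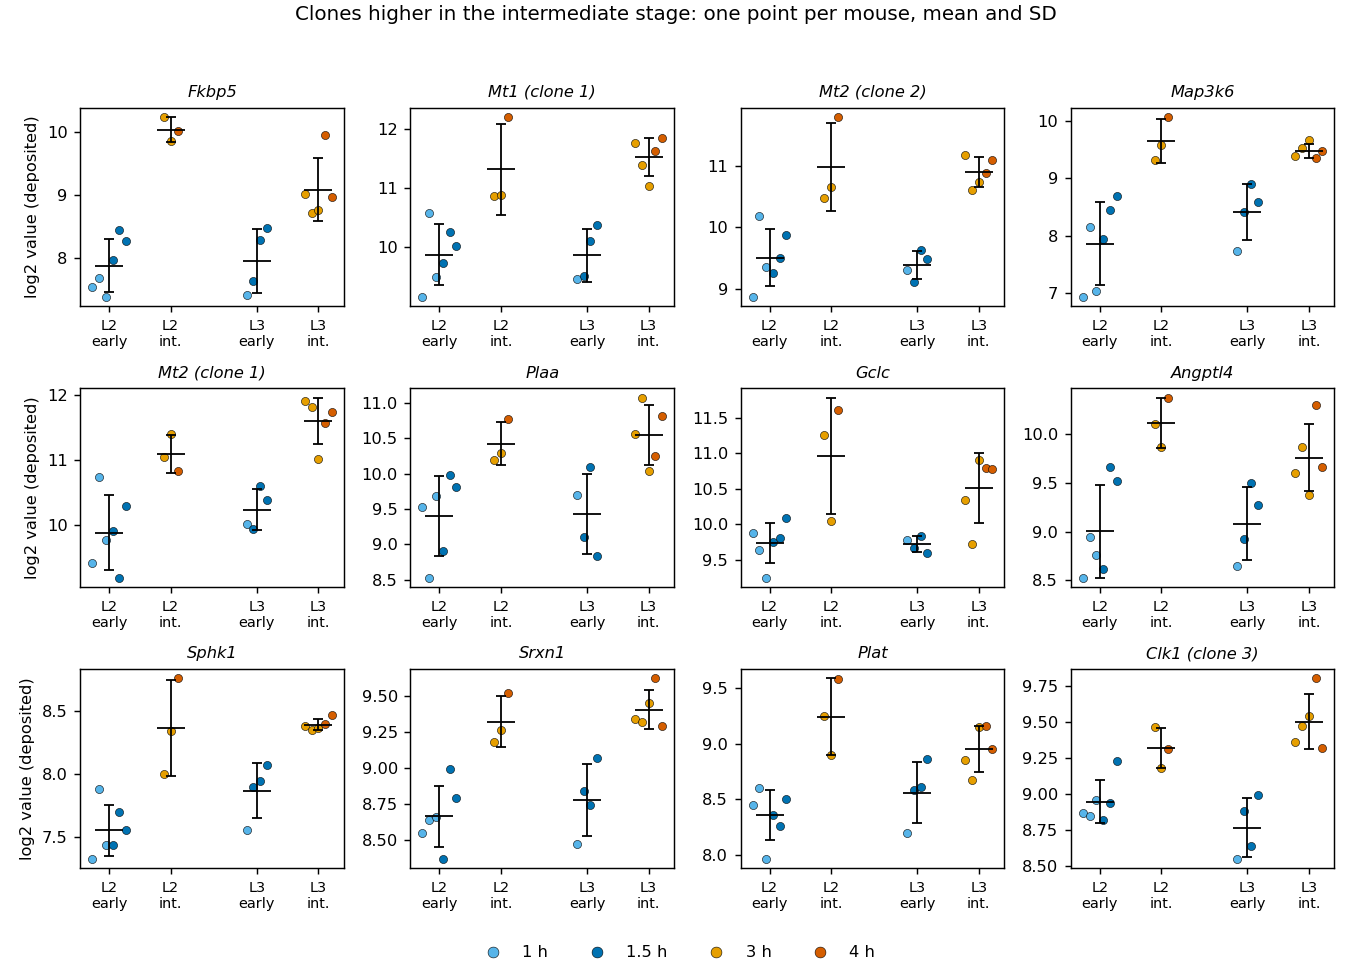
Deposited log2 values of the 12 clones called higher in the intermediate stage, 1 point per mouse coloured by hours after OA, with the mean and SD of each stage in lots 2 (L2) and 3 (L3) as bars. In the panels of Fkbp5, Mt1, Mt2, Map3k6 and Srxn1 the intermediate (int.) mice lie above all early mice, and in those of Gclc, Plaa, Angptl4, Plat, Sphk1 and Clk1 the ranges overlap over both lots.

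A pair of enzymes that act against oxidative damage rose. Gclc, the catalytic subunit of the first enzyme of glutathione synthesis, ran from 9.24 over 9.78 to 10.08 in the early mice of lot 2 against 11.25, 10.04 and 11.60, and in lot 3 the early mice had 9.78, 9.66, 9.84 and 9.60 against 10.34, 9.72, 10.90, 10.79 and 10.78. One intermediate mouse in each lot lay within the early range, and the other 6 were above it. Its difference was 1.00 ± 0.20 (2.00-fold, adjusted p 0.0396). Without the array of P7L3 whose source name reads 1.5 h it was 0.93 with an adjusted p of 0.0900, which missed the threshold.

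Srxn1, which encodes sulfiredoxin and restores peroxiredoxins after overoxidation, rose by a measured 0.64 ± 0.09 (adjusted p 0.00233). The early mice of both lots ended at 9.07 and the intermediate mice began at 9.18, so the stages did not overlap. It was above the unnamed spots on 1 of 18 early and 14 of 15 intermediate arrays. The list of antioxidant and detoxification enzymes held 43 clones of 36 genes, of which 2 rose and 0 fell, where 0.157% and 0.0918% of all clones did, and its median difference was 0.03. Gclm, the partner subunit of Gclc, differed by 0.39 ± 0.11 (adjusted p 0.141) and Keap1, the sensor that holds back the factor Nrf2, by 0.38 ± 0.09 (adjusted p 0.0831). Catalase (Cat), which breaks down hydrogen peroxide, differed by -0.25 ± 0.09 (adjusted p 0.309), and Hmox1, the inducible heme oxygenase, by -0.20 ± 0.27. The Srxn1 promoter held 2 matches to the AP-1 motif TGANTCA, which 7.81% of all promoters held at least once.

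The other genes that rose belong to no common group. Plaa, a ubiquitin-binding protein named for the activation of phospholipase A2, rose by 1.07 ± 0.22 (2.10-fold, adjusted p 0.0461), by 1.01 in lot 2 and 1.11 in lot 3. Clk1, a kinase of splicing factors, rose by a measured 0.56 ± 0.10 (adjusted p 0.00895) in its dimmest clone, which was above the unnamed spots on 4 of 18 early and 14 of 15 intermediate arrays. Its brighter clones differed by 0.45 ± 0.13 (adjusted p 0.164) and 0.95 ± 0.28 (adjusted p 0.197). Plat, the tissue plasminogen activator that starts the breakdown of fibrin, rose by a measured 0.63 ± 0.13 (adjusted p 0.0461), with 1 of 18 early and 8 of 15 intermediate arrays above the unnamed spots. Without the same array of P7L3, Plat differed by 0.60 (adjusted p 0.0783), which also missed it.

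Sphk1, the kinase that makes sphingosine-1-phosphate, was called (adjusted p 0.00566) but was above the unnamed spots on 0 of 33 arrays, so no fold is given, and it was named after its values were seen. Its mean was 7.56 ± 0.20 (SD, n = 6) and 8.37 ± 0.38 (n = 3) in the early and intermediate mice of lot 2, and 7.87 ± 0.22 (n = 4) and 8.39 ± 0.05 (n = 5) in those of lot 3. The stages did not overlap within either lot.

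G0s2, of which both clones on the membranes fell, encodes an inhibitor of adipose triglyceride lipase, the enzyme that takes the first fatty acid off stored triglyceride. The brighter clone ran from 9.13 over 9.55 to 10.16 in the early mice of lot 2 against 8.43, 8.10 and 8.59, and in lot 3 the early mice had 9.41, 9.42, 9.34 and 10.00 against 8.20, 8.59, 8.82, 8.43 and 8.79. Every intermediate mouse was below every early mouse. The clone fell by a measured 1.06 ± 0.14 (adjusted p 0.00176). It was above the unnamed spots on 16 of 18 early arrays and 1 of 15 intermediate arrays.

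The second G0s2 clone, above the unnamed spots on 5 of 18 early and 0 of 15 intermediate arrays, had a measured difference of -1.16 ± 0.16 (adjusted p 0.00176), again without overlap between the stages. For the brighter clone the means were 9.59 ± 0.44 (n = 4) at 1 h, 9.50 ± 0.29 (n = 6) at 1.5 h, 8.43 ± 0.29 (n = 5) at 3 h and 8.60 ± 0.18 (n = 3) at 4 h. Among the 45 clones of 37 genes in the fatty acid metabolism list, Angptl4 rose and both G0s2 clones fell, where 0.157% and 0.0918% of all clones did. In both lots 20.0% of the list was higher and 28.9% lower, against 24.6% and 23.7% of all clones, and the median difference was -0.06. Elovl1, an enzyme that lengthens fatty acids, differed by -0.49 ± 0.11 and was not called (adjusted p 0.0668).

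Arhgap29, a GTPase-activating protein that endothelial cells are known to express, fell by 0.61 ± 0.09 (1.52-fold, adjusted p 0.00205). In lot 2 the early mice ran from 10.52 over 10.69 to 10.89 against 10.11, 10.13 and 9.67, and in lot 3 the early mice had 10.36, 10.68, 10.14 and 10.40 against 9.76, 9.86, 10.00, 10.01 and 9.84. The lowest early mouse (10.14) and the highest intermediate mouse (10.13) were of different lots. It was above the unnamed spots on all 33 arrays. The fall was 0.72 ± 0.13 in lot 2 and 0.50 ± 0.12 in lot 3. The list of leukocyte adhesion and endothelial genes, which does not hold Arhgap29, had 1 called clone (Plat) of 51, where 0.157% of all clones rose and 0.0918% fell. Its median difference was -0.12. In both lots 31.4% of its clones were lower and 15.7% higher, against 23.7% and 24.6% of all clones. Among endothelial markers, Cdh5 differed by -0.06 ± 0.10, Tek by -0.47 (adjusted p 0.361, limma) and Eng by -0.20 and -0.26 in its 2 clones. Ace differed by 0.02 and the brighter Pecam1 clone by 0.08, and none of these was called.

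**Figure D3:**
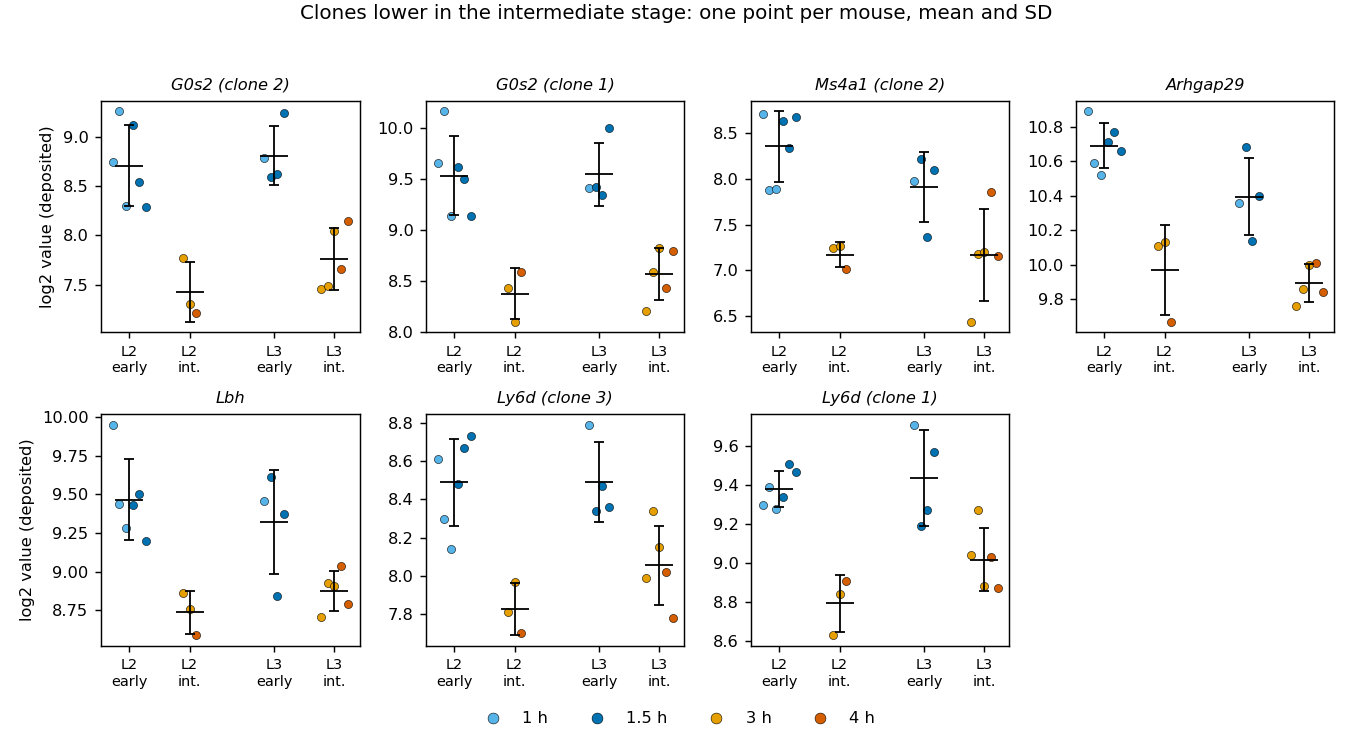
Deposited log2 values of the 7 clones called lower in the intermediate stage, 1 point per mouse coloured by hours after OA, with the mean and SD of each stage in lots 2 (L2) and 3 (L3) as bars. For both G0s2 clones and Arhgap29 the intermediate (int.) mice lie below all early mice, and for Ms4a1, Lbh and both Ly6d clones the stages overlap in lot 3.

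The other genes that fell were Ms4a1, Ly6d and Lbh. Ms4a1 encodes CD20, a surface protein of mature B cells. Its second clone was called (adjusted p 0.0297) with means of 8.35 ± 0.39 (SD, n = 6) and 7.17 ± 0.14 (n = 3) in lot 2 and of 7.91 ± 0.38 (n = 4) and 7.17 ± 0.50 (n = 5) in lot 3. It was above the unnamed spots on 0 of 33 arrays, so no fold is given, and of the other 3 Ms4a1 clones 0 were called. The brightest Ms4a1 clone went the other way, by 0.22 ± 0.19 (adjusted p 0.725).

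Ly6d, a surface antigen found on cells of the B lineage, fell by a measured 0.50 ± 0.08 (adjusted p 0.00865) in its brightest clone, which was above the unnamed spots on 15 of 18 early and 5 of 15 intermediate arrays. Clone 3 was called (adjusted p 0.0269) but was above them on 0 of 33 arrays, and clone 2 was not called (adjusted p 0.0606). Lbh, a transcription cofactor, fell by a measured 0.58 ± 0.11 (adjusted p 0.0381), with 16 of 18 early and 3 of 15 intermediate arrays above the unnamed spots, from a lowest, median and highest value of 9.21, 9.44 and 9.95 to 8.86, 8.76 and 8.59 in lot 2. In lot 3 its early mice (9.46, 9.61, 8.84 and 9.37) overlapped its intermediate mice (8.71, 8.93, 8.91, 9.04 and 8.79).

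The list of B cell and immunoglobulin genes held 29 clones of 14 genes, of which 1 fell and 0 rose by the test, where 0.0918% and 0.157% of all clones did. At an unadjusted p under 0.05, 11 clones were lower and 0 higher, where all 7625 clones gave 405 and 404. Of the 29, 19 (65.5%) were lower in both lots and 2 (6.90%) higher, against 23.7% and 24.6% of all clones, and the list's median difference was -0.20. In 6 of the 29 clones the mean over the mice was above the unnamed spots. Among these, the mu heavy chain gene Igh-6 differed by -1.04 ± 0.39 in its first clone (adjusted p 0.338) and by -0.39 ± 0.30 in its second (adjusted p 0.699). Cd74, the invariant chain that many cell types express, differed by -0.05 ± 0.08 in its brightest clone. The dimmer Igh-6 clones differed by -0.21 ± 0.10 and 0.30 ± 0.23, the last of them higher in both lots.

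**Figure D4:**
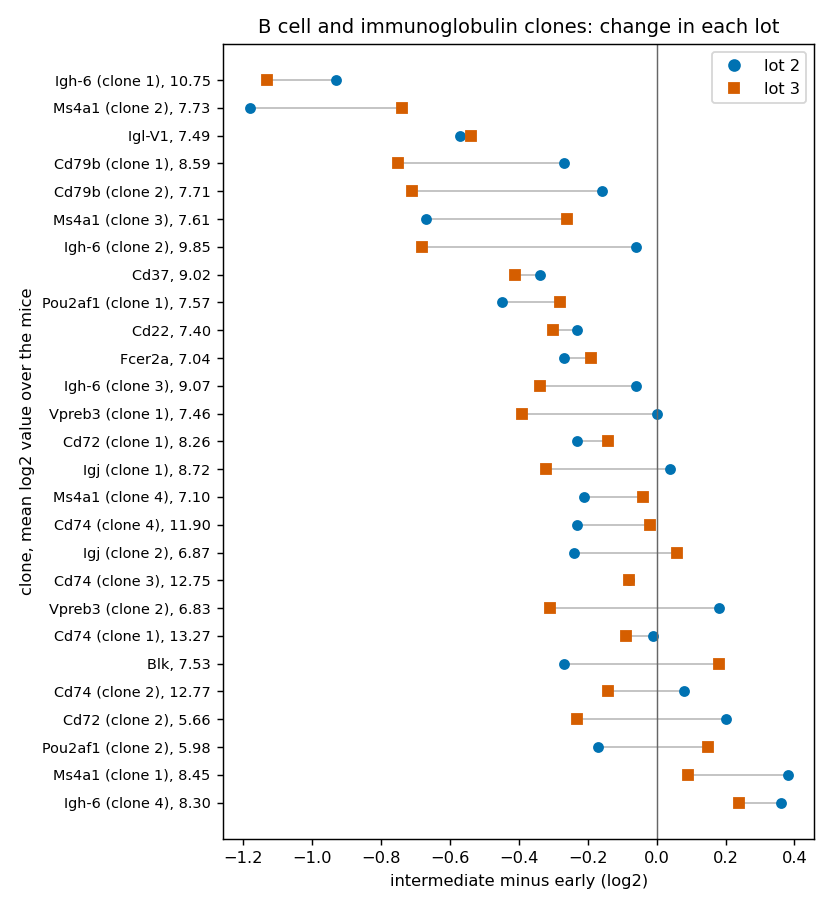
Difference between the intermediate and the early stage (x axis, log2) in lot 2 (circles) and lot 3 (squares) for 27 of the 29 clones of the B cell and immunoglobulin list (y axis, each with its mean log2 value over the 18 mice). 17 of the 27 clones have both marks left of 0 and 2 have both marks right of it, and most have means below 9.08, the mean background level.

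The summed linear value of the 8 B cell marker clones ran from 1820 to 2710 in the early mice and from 1440 to 2010 in the intermediate mice. For T cell markers it ran from 1480 to 1790 and from 1270 to 2070, and for hemoglobin and other red cell genes from 231000 to 251000 and from 230000 to 253000. Most hemoglobin clones lay at the top of the scale, with a highest mouse of 14.41 in clone after clone, so their sum could not show a change in blood content. In lung tissue, fewer cells of a type and less RNA per cell cannot be told apart, and the part of B cell or blood content in the fall of Ms4a1, Ly6d and Lbh was not tested. Of the 27 clones of the T cell list 0 were called, with 5 lower and 2 higher at an unadjusted p under 0.05. The neutrophil genes S100a8 and S100a9 varied widely between mice, from 10.65 to 14.27 and from 10.84 to 14.07, and neither was called between the stages (-0.04, adjusted p 0.983, and 0.30 ± 0.34, adjusted p 0.815). Summed over the 5 neutrophil marker clones, the early mice ran from 5540 to 37700 and the intermediate mice from 4360 to 14100.

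In lot 2 alone 81 clones (1.06%) were called, 45 higher and 36 lower, and in lot 3 alone 0 were called (limma, 676 at an unadjusted p under 0.05 against 1225 in lot 2). The count in lot 2 was 3 without the 4 h mouse P11L2, 8 without the 3 h mouse P16L2 and 224 without the 1 h mouse P4L2. A call in one lot and not in the other does not show that the lots differed, and the difference itself was tested. The change differed between the lots for 7 clones (0.0918%), with 1050 at an unadjusted p under 0.05, and for 0 clones without P16L2. Over all clones 48.4% had the same sign in both lots, and the correlation of the 2 differences across clones, which are not independent replicates, was 0.0486. Of the 81 clones called in lot 2, 45 had the same sign in lot 3 and 36 the opposite, and the median difference of the 45 that rose in lot 2 was 0.67 there and 0.03 in lot 3.

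Tef, a transcription factor through which the circadian clock drives its output genes, changed in opposite directions in the 2 lots. In lot 2 its first clone ran from 8.34 over 8.40 to 8.75 in the early mice against 9.79, 9.76 and 9.29 in the intermediate mice. In lot 3 the early mice had 9.20, 9.41, 9.22 and 9.31 and the intermediate mice 8.68, 8.15, 8.77, 8.98 and 7.99. The stages overlapped in neither lot, with the intermediate mice above in lot 2 and below in lot 3. The change was 1.13 ± 0.19 in lot 2 and -0.77 ± 0.18 in lot 3, and the difference of the changes was -1.90 ± 0.26 (adjusted p 0.00742, limma). The clone was above the unnamed spots on 6 of 18 early and 7 of 15 intermediate arrays. The second Tef clone changed by 0.59 in lot 2 and -0.49 in lot 3, a difference of -1.08 ± 0.27 that was not called (adjusted p 0.123).

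Arntl, which encodes BMAL1, the core activator of the same clock, moved the other way round. Its early mice in lot 2 ran from 7.76 over 8.18 to 8.37 and its intermediate mice had 7.60, 7.62 and 7.73, while in lot 3 the early mice had 7.20, 7.87, 7.51 and 7.82 and the intermediate mice 8.30, 8.18, 8.05, 8.11 and 8.35. The intermediate mice were lower in lot 2 and higher in lot 3, without overlap in either. The difference of the changes was called (adjusted p 0.0390), but it kept the call in only 4 of 20 other settings, with adjusted p up to 0.16, and Arntl was above the unnamed spots on 0 of 33 arrays. Of 17 clones of 11 clock genes on the membranes, 0 were called between the stages and 2 (Tef and Arntl) between the lots. Of all clones, 0.0918% were called between the lots. The clock list was not chosen independently of these values. The hour of the day at which each mouse was injected is not given in the sources used here, and its part was not tested.

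**Figure D5:**
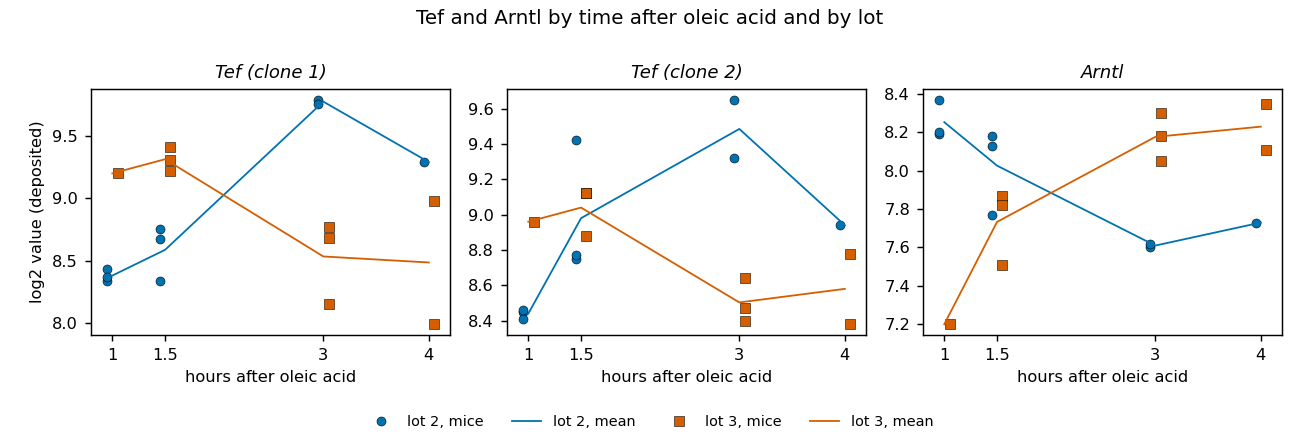
Deposited log2 values of both Tef clones and of Arntl (y axis) against hours after OA (x axis), 1 point per mouse, with circles for lot 2 and squares for lot 3 and lines through the means of each time. The first Tef clone lies at 9.29 to 9.79 in the intermediate mice of lot 2 and at 7.99 to 8.98 in those of lot 3, and Arntl shows the reverse order.

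The other 5 clones whose change differed between lots included 2, of Tgfbi and Tgfbr3, that belong to the list of TGF-beta, BMP and growth factor genes. That list held 53 clones, and 0.0918% of all clones differed between the lots. Dcp1a, which takes part in the removal of the mRNA cap, changed by 0.86 ± 0.10 in lot 2 and -0.08 ± 0.10 in lot 3 (adjusted p of the difference 0.0155). Plxnb2, a receptor of semaphorins, changed by 0.57 and -0.54 (adjusted p 0.0190), and Mfge8, a protein that marks dying cells for uptake, by 0.84 and -0.49 (adjusted p 0.0390). The matrix protein gene Tgfbi changed by -0.59 and 0.44 (adjusted p 0.0390). For the second clone of Tgfbr3, a co-receptor of TGF-beta, the difference was called as well (adjusted p 0.0390) with 0 of 33 arrays above the unnamed spots.

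The MAP kinase list held 57 clones, of which Map3k6 rose, where 0.157% of all clones did. At an unadjusted p under 0.05 it had 9 clones higher and 0 lower, against 404 and 405 of all 7625 clones. On average over the mice 12 of the 57 were above the unnamed spots, and the list's median difference was 0.05. In the list of complement and coagulation, Plat was the 1 called clone of 17, and in that of heat shock proteins and chaperones Fkbp5 was the 1 of 79. Both rose, as did 0.157% of all clones. In 20 of the 29 gene lists no clone was called. They held 977 clones, of which 50 were higher and 48 lower at an unadjusted p under 0.05, where all 7625 clones gave 404 and 405. Their brightest members differed by -0.49 to 0.61, with no adjusted p below 0.129. In transcription, inflammation and immunity these were Klf2 (-0.49 ± 0.13), a transcription factor of endothelium and lymphocytes, Cklf (0.61 ± 0.28), a chemokine-like factor, the TNF receptor Tnfrsf1a (0.17 ± 0.13), the NF-kB inhibitor Nfkbia (-0.13 ± 0.20), the lysosomal protease Ctsd (-0.08 ± 0.13), the T cell antigen Cd6 (0.30 ± 0.12) and the MHC light chain B2m (0.04 ± 0.09). Among lung and matrix genes they were Sftpd (0.06 ± 0.08), the retinal dehydrogenase Aldh1a1 (0.24 ± 0.12), the matrix glycoprotein Sparc (0.05 ± 0.07), the protease Bmp1 (0.30 ± 0.14) and the sodium pump subunit Atp1b1 (0.27 ± 0.13). In the lists of ribosomal, mitochondrial, proteasome and cell cycle genes they were the ribosomal protein Rps16 (-0.05 ± 0.09), the ATP synthase subunit Atp5b (-0.02 ± 0.12), the deubiquitinase Uchl5 (0.02 ± 0.15) and the cyclin Ccnd2 (-0.12 ± 0.09). The others were S100a9, given above, Hba-a1 (0.00 ± 0.04) and the muscle actin Acta1 (-0.01 ± 0.13), and 1 member is not named.

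In 3 mice of lot 1 at 3 h and 4 h, which had no early counterpart in the comparison and entered no fit, the first Mt1 clone averaged 11.51 ± 0.37 (SD, n = 3), Fkbp5 9.58 ± 0.67 and the brighter G0s2 clone 8.60 ± 0.36. These values lie inside the range of the intermediate mice of lots 2 and 3 or, for the highest G0s2 mouse at 8.99, above it. The first Tef clone had 9.43, 9.62 and 9.61 in these mice, inside the range of the intermediate mice of lot 2 and above that of lot 3. Other called clones had mice of lot 1 inside the early range. The third clone of Clk1 had mice at 8.62 and 9.10 inside it and 1 at 9.24, just above its top of 9.23. Srxn1 had 1 mouse at 8.95 and Gclc 1 mouse at 9.44. Plaa had 1 mouse at 9.89 and Angptl4 1 mouse at 9.55.

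Mice given physiological serum, without a lot number, were compared over the same hours with their own arrays (3 early mice and 2 at 3 h, from scanner signals normalised together with the OA arrays). The change in OA mice from early to 3 h minus that in serum mice was called for 0 clones (limma, 500 at an unadjusted p under 0.05), and the serum change for 0 (624 unadjusted). Of the 19 called clones, 17 kept their sign in OA minus serum and 3 had an unadjusted p under 0.05 there. In serum mice alone, 7 of the 19 had an unadjusted p under 0.05. The serum change was about as large as the OA change for Arhgap29 (-0.66 ± 0.29 against -0.55 ± 0.18), Gclc (0.72 ± 0.32 against 0.78 ± 0.19), Sphk1 (0.48 ± 0.19 against 0.55 ± 0.12), Srxn1 (0.43 ± 0.18 against 0.53 ± 0.11) and clone 3 of Ly6d (-0.49 ± 0.23 against -0.46 ± 0.14). For Arhgap29 and this Ly6d clone the serum fall rested on 1 of the 2 mice at 3 h. Arhgap29 stood at 8.90 and 10.53 in these mice and at 10.32, 10.27 and 10.54 early. The Ly6d clone stood at 7.61 and 8.63 against 8.45, 8.72 and 8.64. Both low values came from an array with a median log2 intensity of 5.73, where the lowest OA array had 7.17. Fkbp5 changed by 1.5 ± 0.23 in OA mice and 0.32 ± 0.38 in serum mice, and the first Mt1 clone by 1.28 ± 0.25 and 0.96 ± 0.41. In serum mice Mt1 stood at 9.56, 8.65 and 9.00 early and at 10.68 and 9.38 at 3 h. The brighter G0s2 clone changed by -0.70 ± 0.30 in serum mice and -1.09 ± 0.18 in OA mice. For the dimmer Mt2 clone these were 0.81 ± 0.37 and 1.27 ± 0.23, and for Ms4a1 -0.86 ± 0.43 and -1.06 ± 0.26. For Lbh they were -0.42 ± 0.29 and -0.53 ± 0.17. These serum changes also leaned on the 3 h mouse whose array had the median of 5.73. Ms4a1 stood at 5.84 in that mouse and 7.77 in the other, against 7.27, 7.99 and 7.73 early. The brighter G0s2 clone stood at 8.55 and 9.54 against 9.63, 9.83 and 9.78. Lbh stood at 8.70 and 9.42 against 9.02, 10.13 and 9.29. The dimmer Mt2 clone stood at 10.21 and 8.69 against 9.08, 8.24 and 8.58. Angptl4 changed by -0.01 ± 0.33 in serum mice, which gives no direction, and by 0.74 ± 0.20 in OA mice. The third Clk1 clone changed by -0.22 ± 0.20 in serum mice and by 0.50 ± 0.12 in OA mice. In serum mice this clone stood at 7.18, 7.06 and 7.22 early. At 3 h it stood at 6.54 in the mouse with the dimmest array and at 7.32 in the other. With 0 clones called in OA minus serum, the change of none of the 19 clones was shown to be particular to OA. The 2 serum mice at 3 h differed from each other, their arrays being the dimmest (median log2 intensity 5.73) and the brightest (8.39) of the serum arrays, and with 2 mice a difference from OA of the size seen for Mt1 (0.32 ± 0.48) was not detectable.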

How the data were processed

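The deposited table held log2 values that the authors had corrected for neighbourhood effects and local background and quantile-normalised, and the array files held the scanner intensity of each spot as deposited, quantified with Bzscan2. The table's values correlated between 0.9978 and 0.9998 with the log2 intensity of the same array. Groups came from the titles. The arrays of a mouse were averaged, 200 control spots and 2159 spots without a gene name were left out, and limma 3.58.1 (R 4.3.3) was fitted with lot as a block, or with 4 groups of stage by lot. The study had joined 1 h with 1.5 h and 3 h with 4 h after clustering arrays of the series, so the stages are not independent of the data. The members, lists and tests were chosen with earlier results of these data known.

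For serum mice, log2 intensities (floor 1) were quantile-normalised together with the OA arrays. Both arrays of the 1.5 h serum sample come from 1 mouse in the study's design and were averaged, where the plan had counted each array as a mouse. Named clones were those called, above the unnamed spots and alike in both lots, the called members of 29 lists, and the brightest member of a list without calls. Named besides were marker genes, clones whose change differed between the lots, Sphk1 and further list members that were not called. Sphk1 and these further members were picked with their values known, so they are not a full account of their lists. Promoters came from RefSeq, and 10 of the 16 called genes matched by symbol. Angptl4, Clk1, Gclc, Ly6d, Ms4a1 and Plat are named only. The fits were tested on simulated data with noise drawn independently for each clone and mouse. Those data held no difference between ranges of array numbers and no relation between clones, so the test could not show the effect of either. The number of arrays limits the precision, and no 2 arrays held identical values. Single values of some listed genes are not reported here.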

Additional observations from a re-analysis of the deposited data

Results flagged for a closer look

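In 3 of 78 sets of values, 1 mouse lay far from the rest of its group, where chance gives about 1 in 20. Fkbp5 stood at 9.96 in the 4 h mouse P12L3 and at 9.02 in the next highest intermediate mouse of lot 3. The third clone of Clk1 stood at 9.23 in the 1.5 h mouse P8L2, against 8.96 in the next early mouse of lot 2. The first clone of G0s2 stood at 10.00 in the 1.5 h mouse P5L3, which has 1 array, against 9.42 in the next early mouse of lot 3. None of these mice reduced the stage difference below the threshold when left out.

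The change from the early to the intermediate stage differed between the lots for 7 clones by the test of the difference itself. Lot 3 minus lot 2 was -1.90 for Tef, -1.33 for Mfge8, -1.11 for Plxnb2, -0.94 for Dcp1a and -0.67 for the second clone of Tgfbr3, and it was 1.09 for Arntl and 1.03 for the second clone of Tgfbi.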

How the results depend on the processing

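Of 656 values of the 19 called clones under other settings, 527 kept the call and 128 kept the sign only, and Arhgap29 turned to 0.12 (adjusted p 0.38) with the serum mean subtracted. 12 of them were called without any 1 of the 18 mice. The other 7 (Angptl4, Plat, Gclc, Plaa, Lbh, Ms4a1 and the third Ly6d clone) lost the call without 7 to 14 of the mice. The number called, 19, ran from 12 (without P6L2 or P11L2) to 58 (without P4L3), with 36 without P7L2 and 34 without P9L3, and the number alike in both lots from 12 to 50. It was 43 with scanner values centred on the median (42 alike in both lots), 5 with the fitted scanner signal (5: Mt1, Mt2, Fkbp5, G0s2 and Arhgap29), 53 without the block (45), 54 with lot as a random block (46), 30 with the times weighted equally, 39 with mice weighted by arrays (36) and 1979 (1025) with the same-time serum mean subtracted, which by its construction leaves the spread between serum mice out. Of the 19 clones, 7 were among those 1979 (both Mt2 clones, Fkbp5, Angptl4, Plaa, Clk1 and the second G0s2 clone), and the other 12 lost the call. In settings chosen after seeing the data it was 84 with arrays as units and the mouse as a random block, 99 with the range of the array number (up to 31, or 32 and up) as a covariate besides, and 6 (6) from arrays numbered up to 31 alone. In each range of array numbers all 19 kept their sign at an unadjusted p under 0.05, while 944 clones differed between the ranges.

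Calls in lot 2 ran from 3 (without P11L2) and 8 (P16L2) over 37 (P2L2), 39 (P6L2) and 40 (P8L2) to 224 (P4L2), and were 42 among clones above the unnamed spots. Calls in lot 3 ran from 0 to 5, and were 7 among those clones. The 7 clones that differed between lots became 4 among those clones and 4 without arrays 60 and 61. Leaving out a mouse gave 0 (P16L2) to 13 (P4L2), and 5 or 6 only without P3L2, P7L2, P8L2, P1L3 or P8L3. The difference for Tef ran from -2.06 to -1.77 and was called in 19 of 20 settings. Dcp1a kept the call in 19 of 21, Plxnb2 in 14 of 21, Tgfbi in 6 of 21, Mfge8 in 5 of 21, Tgfbr3 in 5 of 20 and Arntl in 4 of 20, and none of the 7 reversed. With the fitted signal at the calculated diameter, 11 clones were called in serum and 5 in OA minus serum, and with each serum array as a mouse 1 in serum. Leaving out serum mice gave 0 to 695 and 0 to 391, the highest without the brighter 3 h mouse. The cause was not tested. No paired analysis was possible because the mice of the 2 stages share no number within a lot.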
